A study of Mus musculus with 8 samples.

Results

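The major urinary proteins of mouse liver were represented by 3 of the 22725 probe sets in the deposited table, those annotated Mup3 (Entrez 17842), Mup21 (Entrez 381531) and Mup5 (Entrez 17844), or 3 of 19540 genes. They were taken by symbol, as every probe set whose annotation lists a name of Mup followed by digits, and 0 of the 43 probe sets that list several symbols held such a name. The reference gene table names 22 Mup genes, and the other 19 were not analysed here. Total RNA of liver was measured on 8 Affymetrix arrays in groups of 4, WT and HNF6KO. HNF6KO denotes livers depleted of HNF6, a homeodomain transcription factor of hepatocytes encoded by Onecut1. Both groups are labelled as untreated male mice of strain C57B/6, 12 weeks old, fed chow and sampled at ZT10, 10 h after lights on and given as 5 pm. The labels name no Cre driver, floxed allele or vector for the depletion, and do not say whether each array came from a separate animal, so the p-values measure the spread between these arrays, which may be technical.

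Major urinary proteins are small secreted lipocalins, barrel-shaped proteins with a pocket for volatile ligands. Hepatocytes make them in large amounts, they pass through the blood into the urine, and there they carry and release pheromones. Adult males make more of them than females, and the genes respond to the male pattern of growth hormone pulses through STAT5b and also to androgens and glucocorticoids. The genes lie in 1 cluster of near-identical central copies flanked by more divergent members. Mup3, Mup21 and Mup5 are among the divergent members, with Mup3 and Mup21 next to each other at one end of the cluster and Mup5 separated from Mup3 by Mup20.

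The promoters of Mup3 and Mup21 are shown because these were the members with the large differences. Each sequence is the 250 bases before the annotated start, 5′ to 3′ on the minus strand, from RefSeq (GRCm38.p6), where a window was found for 2 of the 3 members. Capitals mark matches, on either strand, to the letters ATTGAT, the core of the sites that HNF6 and related factors bind, and to TATATAA, which is one form of the TATA box. The Mup3 window lies at chr4:62087318-62087567 and the Mup21 window at chr4:62150842-62151091.
Mup3: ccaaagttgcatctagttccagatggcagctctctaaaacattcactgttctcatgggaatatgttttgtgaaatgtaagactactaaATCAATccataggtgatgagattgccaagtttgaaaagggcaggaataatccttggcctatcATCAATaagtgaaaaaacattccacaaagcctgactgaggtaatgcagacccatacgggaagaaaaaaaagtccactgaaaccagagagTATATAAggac
Mup21: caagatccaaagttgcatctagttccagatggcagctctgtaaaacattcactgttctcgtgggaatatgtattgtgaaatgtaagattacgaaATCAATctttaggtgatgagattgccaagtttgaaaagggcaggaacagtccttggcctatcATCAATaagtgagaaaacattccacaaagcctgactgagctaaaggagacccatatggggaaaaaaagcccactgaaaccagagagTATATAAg

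In a global alignment the 2 windows shared 229 identical bases over 256 aligned columns, or 89.5%. Both held 2 matches to ATTGAT, with their first base 162 and 100 bases before the start in Mup3 and 156 and 94 bases before it in Mup21. Both also held 1 match to TATATAA, 11 and 8 bases before the annotated start. Neither held the letters TTCNNNGAA, the core of sites for STAT5, and these matches did not overlap each other. All 14 Mup windows in the table held exactly 2 matches to ATTGAT, 11 held TATATAA and 0 held TTCNNNGAA. Over all 32851 windows of the same length, 6.72% held ATTGAT at least 1 time, 0.609% held it 2 or more times, 3.04% held TATATAA and 7.02% held TTCNNNGAA. The Mup promoters are copies of one another, so their matches are not independent, and a match describes letters and not a bound site.

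Each of the 4 HNF6KO arrays gave a lower Mup3 value than each of the 4 WT arrays. In WT the deposited values, read here as log2 expression, were 13.35, 13.35, 13.31 and 13.23 for arrays 1 to 4. In HNF6KO they were 12.36, 12.03, 12.36 and 12.31 in the same order. The WT arrays lay within 0.12 of each other and the HNF6KO arrays within 0.33, while a gap of 0.87 separated the lowest WT array from the highest HNF6KO array. The group means were 13.31 ± 0.05 in WT and 12.26 ± 0.16 in HNF6KO (SD, n = 4 each). Mup3 fell by 1.05 on the log2 scale (SE 0.08), or 2.07-fold (limma, Benjamini-Hochberg adjusted p = 0.00267 over all probe sets, 95% interval of the log2 change -1.23 to -0.87). By unadjusted p it ranked 3 of the 22725 probe sets. The highest value of any probe set on each array lay between 13.96 and 14.11, so the WT values of Mup3 stood near the top of the measured range, where an array can understate a difference, which was not tested.

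Mup21 was also lower on every HNF6KO array, by a larger and more variable amount, and it did not pass the threshold of 0.05 on the adjusted p. WT arrays 1 to 4 gave log2 values of 10.54, 10.65, 10.68 and 10.38. HNF6KO arrays 1 to 4 gave 8.39, 9.42, 9.63 and 9.53. The groups did not overlap and lay 0.75 apart at their nearest arrays, and HNF6KO array 1 was lower than the other HNF6KO arrays by more than 1 log2 unit. The means were 10.56 ± 0.13 in WT and 9.24 ± 0.57 in HNF6KO (SD, n = 4 each). The log2 change was -1.32 ± 0.24 (SE), or 2.50-fold lower (limma, adjusted p = 0.0813, 95% interval -1.87 to -0.77), and 13 probe sets had a more negative one. HNF6KO array 1 carried 69.4% of the squared deviation of Mup21 from its group means. Without that array the HNF6KO mean was 9.53 ± 0.11 (SD, n = 3), the log2 change was -1.04 and the adjusted p was 0.00705, so the difference was smaller and passed. Leaving out the array that deviates most narrows the spread, so that pass is not independent support for Mup21.

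Mup5, a member known mainly from salivary glands, differed little. The WT arrays, again in order, read 7.18, 7.21, 7.14 and 7.35 (log2), and the HNF6KO arrays read 7.14, 6.96, 7.03 and 7.02. The arrays of the groups did not overlap, but only 0.0056 separated the lowest WT array from the highest HNF6KO array. It differed by -0.18 ± 0.06 (SE, log2, n = 4 per group), and it did not pass (limma, adjusted p = 0.371, 95% interval -0.32 to -0.04). These values stood close to the medians of the arrays, 6.89 to 6.97, and the table gives no detection call, so whether the probe set measured Mup5 transcript above background is not known here.

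**Figure D1:**
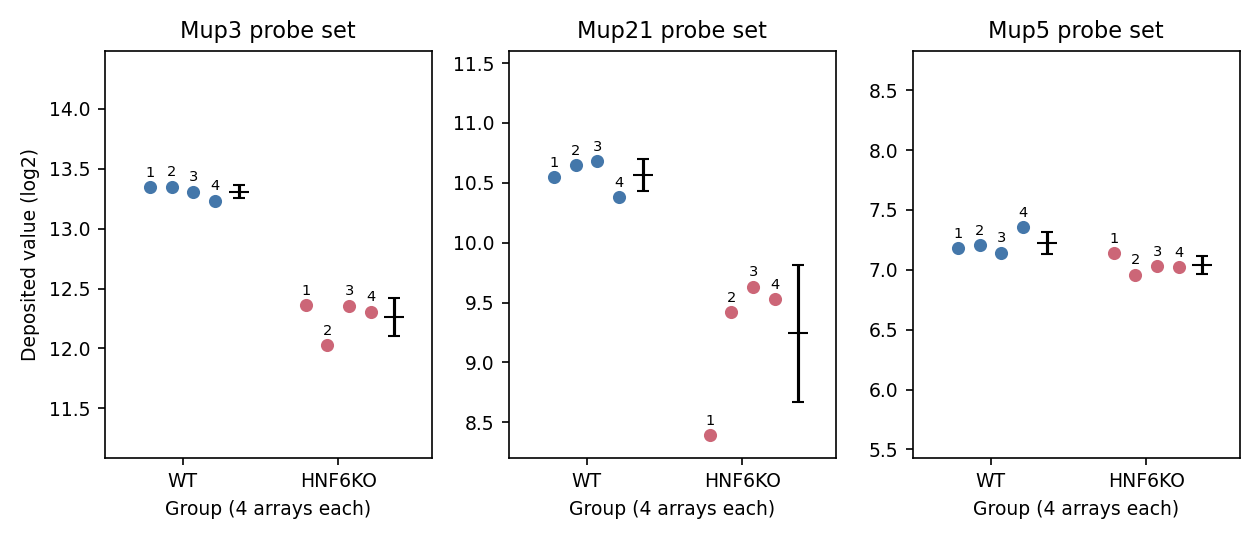
Deposited log2 values of the Mup3, Mup21 and Mup5 probe sets (vertical axes, each spanning the same number of log2 units) on the 4 WT and 4 HNF6KO arrays, with points labelled by array number and a bar for the mean ± SD. All HNF6KO points lie below all WT points in each panel, by a gap of 0.87 for Mup3, 0.75 for Mup21 and 0.0056 for Mup5, and HNF6KO array 1 stands apart for Mup21 at 8.39.

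In all, 1 of the 3 Mup probe sets passed, and of the whole array 71 of 22725 probe sets did, or 0.312% (44 lower, 0.194%, and 27 higher, 0.119%). At an unadjusted p below 0.05, 9.32% of all probe sets passed. Groups that do not overlap were seen for 3 of 3 Mup probe sets, and for 5.5% of all probe sets in either direction (3.05% lower in HNF6KO). The median log2 change of the 3 was -1.05, which is the value of Mup3, against -0.01 over all probe sets. When a WT array was left out, the count of 71 became 22 (array 1), 15 (array 2), 11 (array 3) or 40 (array 4), and it became 17 or 34 when HNF6KO array 3 or 4 was. Mup3 passed in each of the 8 fits that left out 1 array, with adjusted p from 5.11e-04 to 0.0238. Of 20 fits under other settings or subsets of arrays, Mup3 passed in 19 and lost its call within arrays 1 and 2 alone (log2 change -1.16, adjusted p = 0.0844). Mup21 passed in 3 of 20 and Mup5 in 0 of 20, where the adjusted p of Mup5 ran from 0.134 to 0.694.

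The deviations of the arrays from their group means tended to separate arrays 1 and 2 from arrays 3 and 4. This split was seen in these same values, and the labels do not state it. Each member was also compared within arrays 1 and 2 and within arrays 3 and 4, 2 against 2 arrays each. For Mup3 the log2 changes were -1.16 (adjusted p = 0.0844) and -0.94 (0.0135). For Mup21 they were -1.69 (adjusted p = 0.221) and -0.95 (0.0505), a nearly equal change to that of Mup3 in arrays 3 and 4. For Mup5 they were -0.15 (adjusted p = 0.694) and -0.22 (0.281). With the split as a term in the fit, Mup21 passed at an unchanged log2 change of -1.32 (adjusted p = 0.0336). A term picked from the spread of these values can narrow that spread, and 258 probe sets passed with it in place of 71. That pass is therefore not independent support for Mup21. All 3 members were lower in HNF6KO on both sides of the split.

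**Figure D2:**
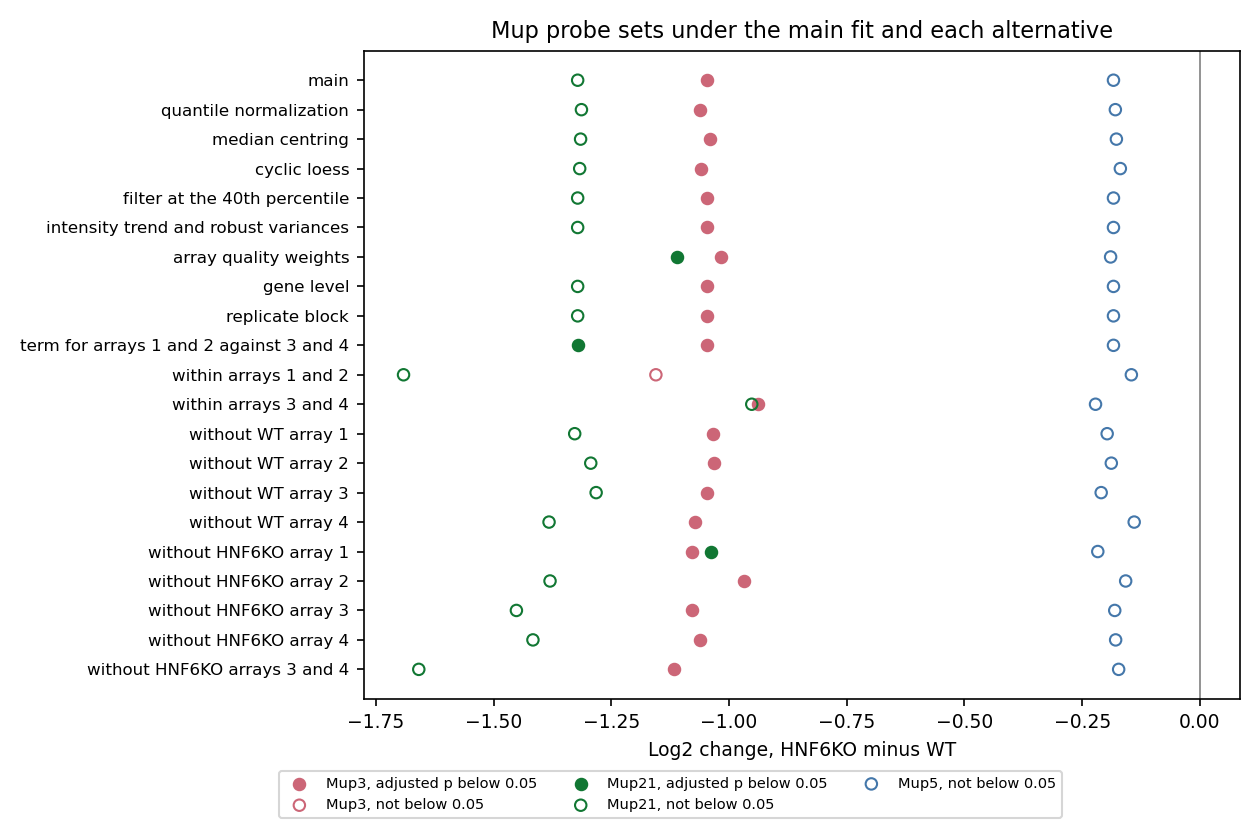
Log2 change, HNF6KO minus WT (horizontal axis), of Mup3, Mup21 and Mup5 in the main fit and in 20 alternatives (rows), with filled points where the adjusted p was below 0.05. Mup3 stays between -1.16 and -0.94, Mup21 moves between -1.69 and -0.95, and Mup5 stays between -0.22 and -0.14.

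Taken against the mean of the WT arrays, HNF6KO arrays 1 to 4 stood at -0.95, -1.28, -0.95 and -1.0 for Mup3. The same differences were -2.17, -1.15, -0.93 and -1.04 for Mup21 and -0.08, -0.26, -0.19 and -0.20 for Mup5. On HNF6KO arrays 2 to 4, Mup3 and Mup21 thus differed from WT by like amounts, and array 1 was the lowest for Mup21 alone. The lowest array for both Mup3 and Mup5 was HNF6KO array 2, so Mup21 did not share its lowest array with them.

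Whether the members changed by different amounts was tested on the difference of their log2 values within each array, for all 3 pairs, a test chosen after the values were seen. The changes of Mup3 and Mup21 differed by 0.28 (exact permutation test over 70 assignments, two-sided, p = 0.714, adjusted over 3 pairs 0.714), where the SD of the within-array difference was 0.64 in HNF6KO and 0.10 in WT. Without HNF6KO array 1 they differed by -0.04. The change of Mup3 was larger than that of Mup5 by 0.86, and that of Mup21 larger than that of Mup5 by 1.14. Both gave p = 0.0286, the smallest that 4 against 4 arrays allow, and 0.0429 after adjustment over the 3 pairs (exact permutation test, two-sided). Since Mup5 lies near the array medians, part of that gap can come from a compressed scale, which was not tested.

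Deviations from the group means describe how the probe sets varied apart from genotype. Over the 8 arrays Pearson's r of these deviations was -0.20 for Mup3 with Mup21, 0.25 for Mup3 with Mup5 and -0.67 for Mup21 with Mup5. The pooled values mix unlike groups of 4 arrays. For Mup3 with Mup21, r was 0.75 in WT and -0.27 in HNF6KO. For Mup3 with Mup5 it was -0.80 in WT and 0.76 in HNF6KO, and for Mup21 with Mup5 -0.91 and -0.83. The points share arrays and depend on HNF6KO array 1 for Mup21, and the values are a description without a test. The 5 named genes whose deviations followed the mean deviation of the 3 Mup probe sets most closely were Kif2a, a microtubule-depolymerising kinesin (r = 0.99), Zbtb10, a zinc finger protein (0.99), Atf6, a sensor of unfolded protein in the endoplasmic reticulum (0.98), Trmu, a mitochondrial transfer RNA modifying enzyme (0.98), and Myo9a, a myosin (0.98), over 8 arrays. Each of these did not pass between the groups (limma, adjusted p from 0.324 to 0.795), and HNF6KO array 1 dominates the mean deviation they were matched to.

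The genes that flank the Mup cluster did not pass. The nearest 10 measured genes on each side, in the order of the reference gene table, had log2 changes between -0.31 and 0.15 with a median of -0.07. In limma 0 of these 20 passed, where 0.343% of all genes did. Of the 20, 2 had an unadjusted p below 0.05 (9.32% of all probe sets did), and 14 lay below 0 (57.4% of all genes did). The outermost member of the cluster is Mup21, and the next measured gene beyond it, the zinc finger gene Zfp37, stood at -0.06 ± 0.08 (SE, log2 change, adjusted p = 0.877). On the other side the next measured gene is Slc46a2, a transporter, at -0.08 ± 0.05 (adjusted p = 0.698). The lowest value among the flanking genes was that of Snx30, a sorting nexin (-0.31 ± 0.09, adjusted p = 0.317), a gene picked with its values in view and the 1 flanking gene whose groups did not overlap.

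**Figure D3:**
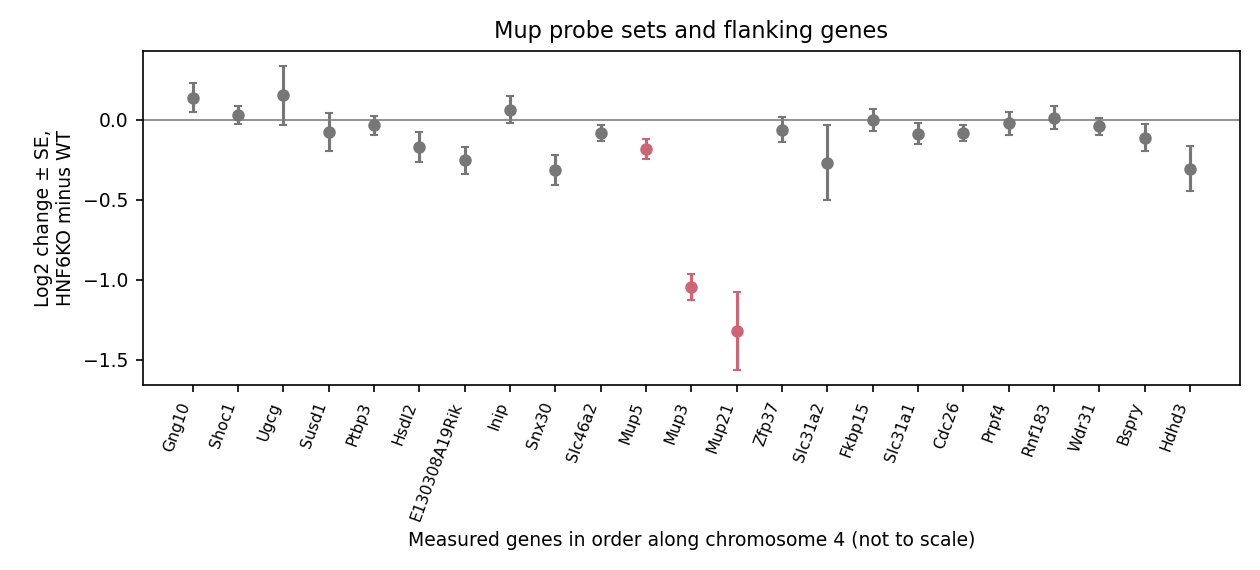
Log2 change ± SE, HNF6KO minus WT (vertical axis), of the 3 Mup probe sets and the 10 nearest measured genes on each side of the cluster, in their order along chromosome 4 and not to scale. Mup3 and Mup21 lie at -1.05 and -1.32, and the 20 flanking genes and Mup5 lie between -0.31 and 0.15.

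Other liver genes more active in males than in females, which like the Mup genes depend on pulsed growth hormone, held members that fell. Of 27 measured outside the Mup family, 4 fell, 0 rose and 23 did not pass, where 0.21% of 19540 genes passed downward and 0.133% upward (0.343% in all). The 4 were Elovl3, a fatty acid elongase (log2 change -2.01 ± 0.19, SE, adjusted p = 0.00906), Hsd3b5, a steroid dehydrogenase (-4.39 ± 0.46, adjusted p = 0.00923), the complement component C6 (-1.25 ± 0.14, adjusted p = 0.0131) and the organic anion transporter Slco1a1 (-3.72 ± 0.52, adjusted p = 0.0316). Their falls were thus 2.39-fold to 20.9-fold, beside 2.07-fold for Mup3. Of the 27, 11 had an unadjusted p below 0.05 (9.32% of all probe sets did), and of these only Socs2 and Ces2e lay above 0. The list's median log2 change was -0.18, against -0.01 over all genes, with 20 of 27 members below 0, as were 57.4% of all genes. Its mean level lay between 10.74 and 10.92 on the WT arrays and between 10.14 and 10.31 on the HNF6KO arrays. HNF6KO array 1, where Mup21 was lowest, stood at 10.25 and was not the lowest array for this list. Cyp4a12a and Cyp2d9, strongly male-biased P450 genes chosen after their values were seen, stood at 0.04 ± 0.21 (SE, log2 change, adjusted p = 0.980) and -0.09 ± 0.12 (adjusted p = 0.889). The call of Elovl3 was lost within arrays 1 and 2 (adjusted p = 0.175) and without HNF6KO arrays 3 and 4 together (0.0618), and so was that of C6 (0.169 and 0.0837). The call of Hsd3b5 was lost without WT array 2 (adjusted p = 0.0533). That of C6 was further lost without WT array 2, WT array 3 or HNF6KO array 3 (0.0568 to 0.0660). That of Slco1a1 needed every WT array and HNF6KO arrays 1 and 3 (0.0595 to 0.129 without one of them), and was lost with an intensity trend and robust variances (0.0783) and within arrays 3 and 4 (-2.70, 0.123, against -4.74 within arrays 1 and 2).

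Of 30 measured female-biased genes, 4 rose, 0 fell and 26 did not pass, where 0.133% of all genes passed upward and 0.21% downward. Of the 30, 17 had an unadjusted p below 0.05 (9.32% of all probe sets did), and of these only Cyp4a14 and Cyp4a10 lay below 0. The list's median log2 change was 0.72, with 22 members above 0 and 8 below it (57.4% of all genes lay below 0). The lowest were Cyp4a14 (-1.38 ± 0.53, SE, limma adjusted p = 0.46) and Cyp4a10 (-0.46 ± 0.18, adjusted p = 0.483), picked with their values in view. The risers were Cyp2b9, a cytochrome P450 (5.65 ± 0.28, SE, adjusted p = 1.57e-04), the flavin monooxygenase Fmo4 (1.54 ± 0.15, adjusted p = 0.00906), and the transporters Slc22a27 (1.48 ± 0.15, adjusted p = 0.00906) and Slc22a26 (3.32 ± 0.37, adjusted p = 0.0131). The call of Slc22a27 was lost without WT array 3 (adjusted p = 0.0503), and that of Slc22a26 without WT array 1, 2 or 3 or HNF6KO array 3 (0.0523 to 0.0660), and in either pair of arrays alone (0.128 for arrays 1 and 2, 0.0654 for arrays 3 and 4).

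Of the genes that carry the hormone signals to the Mup genes, 0 of 26 measured passed in limma, where 0.343% of all genes did. Of the 26, 4 had an unadjusted p below 0.05 (9.32% of all probe sets did), with a median log2 change of 0.02 over the list. The member with the smallest p was Zhx3, a zinc finger and homeobox repressor (-0.27 ± 0.06, adjusted p = 0.185). Further members were chosen for their role with their values in view. The log2 change of Ghr, the growth hormone receptor gene, was 0.13 ± 0.06 (adjusted p = 0.521), and that of Stat5b, the transcription factor it activates, was 0.05 ± 0.08 (adjusted p = 0.919). Igf1, a growth hormone target that encodes a circulating growth factor, had one of 0.05 ± 0.04 (adjusted p = 0.799). Nr3c1, the glucocorticoid receptor gene, had one of 0.03 ± 0.05 (adjusted p = 0.910). Zhx2, a factor known to regulate Mup expression, had one of -0.12 ± 0.04 (adjusted p = 0.445). Socs2, the feedback inhibitor that growth hormone induces, had one of 0.85 ± 0.22 (adjusted p = 0.22). Of these 6, 0 passed in limma, and Ghr, Zhx2 and Socs2 had an unadjusted p below 0.05.

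Of 25 measured liver transcription factors, 1 fell, 0 rose and 24 did not pass, where 0.21% of all genes passed downward and 0.133% upward. Their median was -0.08, and 23 lay below 0, where 57.4% of all genes did. The faller was Onecut1, the gene targeted in these livers, with 10.17, 9.87, 10.45 and 10.52 in WT and 9.32, 9.05, 8.67 and 8.70 in HNF6KO (log2, in array order). It fell by 1.32 on the log2 scale (SE 0.18, adjusted p = 0.0310), and the call needed each of WT arrays 1, 3 and 4 and of HNF6KO arrays 2, 3 and 4 (without one of them, adjusted p = 0.0533 to 0.105). It was also lost within arrays 1 and 2 (-0.83, adjusted p = 0.187, against -1.80 within arrays 3 and 4) and without HNF6KO arrays 3 and 4 together (-1.06, 0.103). The transcript region that its probe set reads is not stated here, so the signal left does not measure HNF6 activity. HNF6KO array 1, with the lowest Mup21, had the highest Onecut1 of its group, and the relation was not tested.

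Other lipocalins and other secreted liver proteins did not pass, where 0.343% of all 19540 genes did. At that share 0 is the usual count for lists this short. Of 22 measured lipocalins outside the Mup family, 0 passed in limma, 2 had an unadjusted p below 0.05, near the 9.32% of all probe sets, and the median log2 change was -0.01. Apom, a lipocalin carried on lipoproteins, had the smallest p (-0.58 ± 0.19, adjusted p = 0.358). Obp2a also had an unadjusted p below 0.05, with a larger and more variable change (-1.19 ± 0.50, adjusted p = 0.505). Of the list, 12 lay below 0 and 10 above it. Rbp4, the retinol carrier of plasma, was chosen after its values were seen and stood at -0.0028 ± 0.05 (SE, adjusted p = 0.994). Of 31 measured secreted hepatocyte proteins, 0 passed, 2 had an unadjusted p below 0.05 (9.32% of all probe sets did), and the median was 0.02. The amylase gene Amy1 had the smallest p there (0.38 ± 0.12, adjusted p = 0.344). Circulating MUP1 has been tied to glucose and lipid metabolism, and of 17 measured genes of that kind 0 passed (median -0.06). Of the 17, 3 had an unadjusted p below 0.05 (9.32% of all probe sets did). Acacb, an acetyl-CoA carboxylase, had the smallest p there (0.74 ± 0.14, adjusted p = 0.0856). It passed with the term for arrays 1 and 2 against 3 and 4 (0.0429) and within arrays 1 and 2 (0.97, 0.0376).

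**Figure D4:**
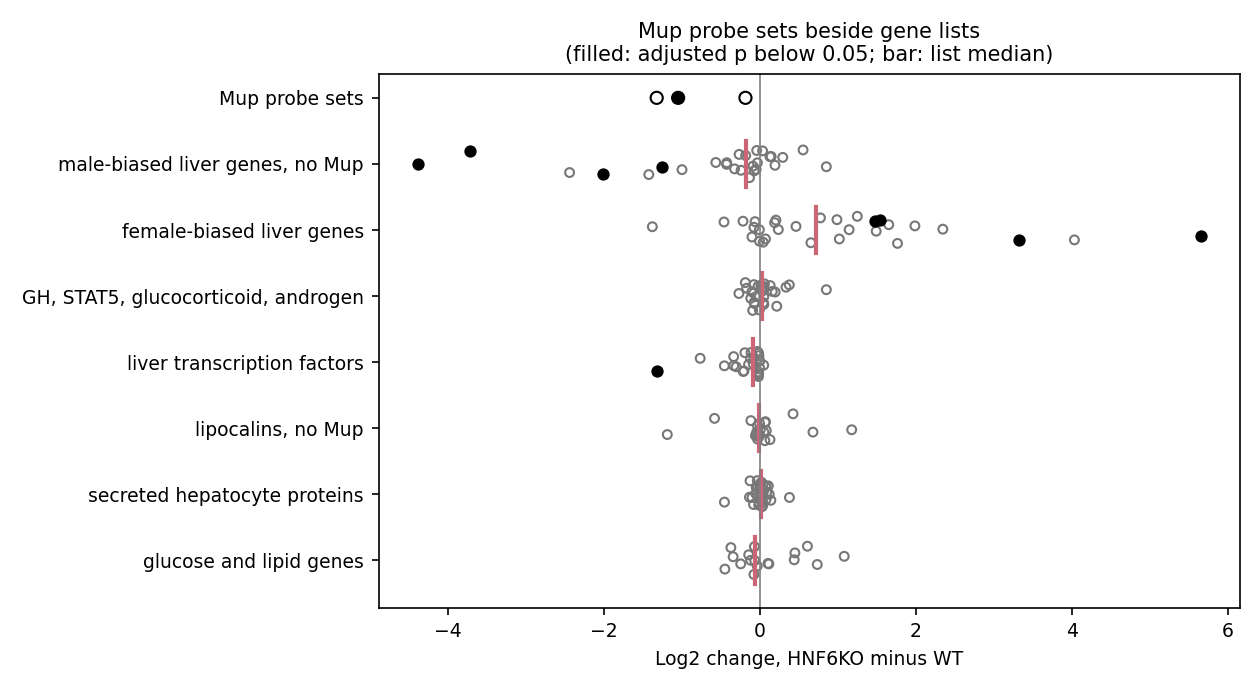
Log2 change, HNF6KO minus WT (horizontal axis), of the 3 Mup probe sets and of each measured gene in 7 lists (rows), with filled points for an adjusted p below 0.05 and a bar at each list's median. The male-biased list has 4 filled points below 0 and the female-biased list 4 above 0, while the hormone control, lipocalin, secreted protein and glucose and lipid lists have 0.

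In limma 0 members of the 7 lists of cell type markers passed, where 0.343% of all genes did. An unadjusted p below 0.05 was seen for 1 hepatocyte, 1 erythroid and 1 lymphocyte marker (9.32% of all probe sets had one). Hepatocyte markers, 9 of 10 measured, had mean log2 levels of 13.49 to 13.56 on the WT arrays and 13.50 to 13.58 on the HNF6KO arrays. Summed over these markers, the log2 levels were 121.4 to 122.0 and 121.5 to 122.3. Cps1, the urea cycle enzyme, had the smallest p among them (0.14 ± 0.06, adjusted p = 0.531). The tissue label thus matched its defining markers on all 8 arrays. All sums here add log2 values over the markers, so their relative spread understates that of expression. Kupffer cell markers (10 of 10 measured) had summed log2 levels of 77.1 to 89.5 in WT and 77.7 to 93.5 in HNF6KO. Those of sinusoidal endothelial markers (10 of 10) were 84.1 to 92.5 and 83.8 to 93.9. Those of stellate markers (10 of 10) were 81.7 to 87.0 and 82.4 to 87.4. The members of these 3 lists with the smallest p were Adgre1 (0.26 ± 0.40, adjusted p = 0.908), Kdr (0.27 ± 0.25, adjusted p = 0.822) and Colec11 (0.22 ± 0.11, adjusted p = 0.592). Above 0 lay 10 of 10 Kupffer, 10 of 10 endothelial and 7 of 10 stellate markers, where 57.4% of all genes lay below 0. Mean log2 Kupffer levels on arrays 1 to 4 were 7.71, 8.55, 8.79 and 8.95 in WT and 8.30, 7.77, 9.35 and 9.10 in HNF6KO. They were thus lower on arrays 1 and 2 than on arrays 3 and 4 in both groups. Cholangiocyte markers (7 of 10) summed to 43.4 to 43.5 in WT and 43.1 to 43.8 in HNF6KO, and lymphocyte markers (8 of 10) to 48.9 to 49.7 and 48.9 to 49.3, led by Krt7 (-0.09 ± 0.05, adjusted p = 0.633) and Cd3d (-0.19 ± 0.07, adjusted p = 0.446). Erythroid markers (5 of 10) summed to 33.7 to 34.1 in WT and 32.0 to 33.6 in HNF6KO. Among them Alas2, the heme synthesis enzyme of red cell precursors, stood at -0.98 ± 0.20 (SE, log2 change, adjusted p = 0.1). Slc4a1, Epb42, Klf1 and Rhag stood at -0.03, -0.10, 0.07 and -0.05, so the lower HNF6KO sums came mostly from Alas2. Alas2 passed in 4 of the 20 other fits, with array quality weights (adjusted p = 0.0128), the term for arrays 1 and 2 against 3 and 4 (0.0322), within arrays 3 and 4 (-1.40, 0.0191) and without HNF6KO array 1 (0.0448). Their part in the Mup3 difference was not tested. In whole liver, fewer cells of a type and less RNA per cell cannot be told apart.

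The probe sets of Mup3, Mup21 and Mup5 list 7, 2 and 5 transcript accessions of their own genes. Because Mup genes are closely related, a probe set can pick up transcripts of relatives, among them the abundant central copies, so the member that fell is uncertain.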

How the data were processed

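Total RNA of mouse liver was labelled and hybridised to 8 Affymetrix whole-transcript arrays, per the labels' protocols. The authors deposited 1 value per probe set and array, read as log2 from their range (3.69 to 14.11). Neither the base of the log nor the steps behind the values (background, normalization, summary of probes) are stated, so a shift of most transcripts that the normalization removed would not be visible. The number of arrays limits the precision. No value was missing or changed.

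Groups came from the sample titles. All 22725 probe sets were fitted in R 4.3.3 with limma 3.58.1 (lmFit, eBayes), HNF6KO minus WT, with Benjamini-Hochberg adjustment over all of them and a threshold of 0.05. The fit was checked on simulated data. Platform annotation named 21113 probe sets by 1 symbol, 43 by several and 1569 by none. For lists, the probe set with the highest mean stood for a gene (19540 genes), and 227 of 260 listed genes were measured. No set test was run. Alternatives were other normalizations, a filter at the 40th percentile, an intensity trend, array weights, other thresholds, 1 probe set per gene, the array number as a block, the split of arrays 1 and 2 from 3 and 4, and each array left out.

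Text names every Mup probe set, Onecut1, up to 4 list members past the threshold (otherwise the smallest p), and the 5 genes most alike in deviations. Members, lists and alternatives were chosen with earlier results of these data known. Arrays were not copies of each other (Pearson r 0.987 to 0.997). Promoter windows are from RefSeq GRCm38.p6 and were aligned in Biopython 1.88.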

Additional observations from a re-analysis of the deposited data

Results flagged for a closer look

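Of 56 groups of 4 arrays checked, for the 3 Mup probe sets and the other named genes, 3 held an array far from the rest, and chance flags about 1 in 20 groups. For Mup3, HNF6KO array 2 stood at 12.03 while the other 3 lay between 12.31 and 12.36. For C6, HNF6KO array 2 stood at 10.29, above the others at 9.95 to 9.996. For Cd3d, HNF6KO array 4 stood at 5.57, below the others at 5.77 to 5.81. The low Mup21 value of HNF6KO array 1 fell just short of this criterion, at 8.39 while the other 3 lay between 9.42 and 9.63.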

How the results depend on the processing

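All 3 Mup probe sets stayed lower in HNF6KO in each of 20 alternatives. In each, the median log2 change of the 3 moved by less than 0.12 (-1.08 to -0.97 with 1 array left out). That 0.12 is the SD between replicate arrays of the mean of the 3 probe sets, and not an SD of the median. The Mup count of 1 was 2 with array quality weights, with the term for arrays 1 and 2 against 3 and 4, or at a threshold of 0.1, and 0 within arrays 1 and 2. It was 1 to 2 with 1 array left out. With array quality weights, which were lowest for HNF6KO array 1 (0.35), Mup21 crossed the threshold (-1.11, adjusted p = 0.0228). Mup21 also passed with that term (-1.32, 0.0336) and at a threshold of 0.1 (-1.32). With 1 array left out it ran from -1.45 to -1.04, Mup3 from -1.08 to -0.97 and Mup5 from -0.22 to -0.14. Mup3 lost its call within arrays 1 and 2 (-1.16), where 2 arrays per group remained. The count of 71 over all probe sets was 215 with array weights, 258 with the term, 25 within arrays 1 and 2, 21 without HNF6KO arrays 3 and 4, 14 at 0.01 and 162 at 0.1, and 11 to 81 with 1 array left out. The count of 9 list genes past the threshold was 17 with array weights, 17 with the term, 5 at 0.01 and 16 at 0.1, and 4 to 10 with 1 array left out. Without calls in any fit, Adgre1 turned to -0.021 within arrays 1 and 2, -0.025 without HNF6KO array 3 (-0.025 to 0.52 with 1 array left out) and -0.42 without HNF6KO arrays 3 and 4, Kdr to -0.034 without the latter, and Kif2a to -0.047 within arrays 1 and 2 and -0.029 without HNF6KO arrays 3 and 4. The cause of these shifts was not tested.

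The array numbers were not taken as pairs, since the labels tie them to nothing shared and same-numbered arrays deviated together at r above 0.1 in 3 of 4 pairs but not in the other (0.04 to 0.50), and 2 of 4 WT arrays correlated best with their own number. With the number as a replicate block, 105 probe sets passed in place of 71, the log2 changes and the Mup count of 1 were the same, and the adjusted p was 0.00890 for Mup3, 0.0553 for Mup21 and 0.337 for Mup5. Onecut1 lost its call with the block (adjusted p = 0.0541).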
